A study of Macaca fascicularis with 21 samples.

Results

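VIM, FN1, TGFBI, TNC and HAPLN1 were described across the annotated cell types and days of cultured cynomolgus monkey embryos. They encode an intermediate filament and 4 proteins of the extracellular matrix that are widely used as signs of a mesenchymal state. They are 5 of the 30792 genes in the count table, found by gene name, and each name matched 1 row. The 5 genes were selected from earlier results of these same counts, in which VIM over whole embryos and FN1 within extraembryonic mesenchyme stood out. Those contrasts are therefore given here as values with no test, and so are the levels of cell types beside each other, because the types were annotated from the same counts.

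The study sequenced 1453 hand-picked single cells of 21 Macaca fascicularis embryos that were cultured from the blastocyst onward to follow development through gastrulation. Each blastocyst lost its zona pellucida and was grown alone on Matrigel, a basement membrane gel, with serum raised over time. The site of attachment was dissected and extra-embryonic cells were trimmed off, so the make-up of the cells reflects dissection and picking. The 3' ends of the transcripts were sequenced from pools of up to 96 barcoded cells. The embryos were labelled day 11 (n = 2), day 12 (n = 5), day 13 (n = 3), day 14 (n = 4), day 16 (n = 4) and day 17 (n = 3), and none carries a label for a genetic change or a drug. For 5 embryos the day is a culture stage (replicate 1 of day 12, replicates 1 and 2 of day 13, replicates 1 and 2 of day 17), and for the other 16 it is a developmental stage.

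The deposited annotation has 12 cell labels, which were read here as 7 families. EXMC is extraembryonic mesenchyme (485 cells), VE/YE visceral or yolk sac endoderm (101 cells) and TE trophoblast and its derivatives (380 cells). AM is amnion (82 cells in E-AM, L-AM1 and L-AM2) and Gast gastrulating cells (83 cells in E-Gast, L-Gast1 and L-Gast2). PGC is primordial germ cells (18 cells in E-PGC), and EPI is the epiblast from which the embryo proper forms (304 cells in postE-EPI and postL-EPI). E- or postE- was read as early and L- or postL- as late.

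In a transition from epithelium to mesenchyme, cells loosen their junctions, rebuild their cytoskeleton and lay down matrix, as epiblast cells do when they enter the primitive streak. Vimentin, the product of VIM, is the intermediate filament of mesenchymal cells, and fibronectin, the product of FN1, is a matrix fibre that cells grip through integrins. TGFBI is a secreted matrix protein induced by transforming growth factor beta, tenascin-C (TNC) is a glycoprotein of embryonic and healing mesenchyme, and HAPLN1 is the link protein that fastens proteoglycans to hyaluronan. In the primate embryo, extraembryonic mesenchyme forms early and lines the cavities around the amnion and yolk sac.

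Embryos held 22 to 88 cells and 2540816 to 11857191 counts, and cells held 3376 to 483669 counts (median 61090). The 5 genes took 0.2781% of all counts. The families were checked with fixed marker lists: the highest median was in the family itself for 7 of 7 markers of EXMC, 6 of 6 of TE, 5 of 6 of VE/YE, 4 of 5 of AM, 4 of 5 of PGC, 3 of 6 of EPI and 2 of 6 of Gast. SNAI2, listed for Gast, had a median of 0 there, and TBX6 was at 1.30 CPM. The cells of a family in an embryo were added up where there were 5 or more, and those of a label where there were 3 or more. A level is such a sum in CPM, the count scaled to the size of its library with TMM. Day was a number, so a slope is a log2 change per day. Lists of other genes, chosen with earlier results of these counts known, are described by their counts. All tests are edgeR quasi-likelihood tests with Benjamini-Hochberg adjustment over all genes kept in the fit, and a gene was called at an adjusted p under 0.05. The labels do not say whether embryos came from separate mothers, so p-values measure the spread between these embryos.

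Over all days, extraembryonic mesenchyme carried the highest median level of VIM, TGFBI and HAPLN1, endoderm that of FN1 and amnion that of TNC. These medians pool unlike days, since PGC sums are of day 16 alone and TE has none of day 16. On day 16 some orders turned round. FN1 was then at 4693 CPM in EXMC and 4046 CPM in VE/YE, and TNC at 42.1 CPM in Gast and 25.6 CPM in AM. VIM was at 364 CPM in VE/YE and 241 CPM in AM, and HAPLN1 at 520 CPM in Gast and 364 CPM in AM. In the 13 embryos with sums of both families, EXMC stood above EPI in 13 for each of the 5 genes. How many of all genes do so was not counted. The median within-embryo difference, on the log2(CPM + 1) scale used for all such differences, was 4.67 for VIM, 4.50 for FN1, 5.09 for TGFBI, 2.98 for TNC and 5.47 for HAPLN1. The families beside EXMC differed from gene to gene. FN1 was highest in endoderm, HAPLN1 was the gene higher in trophoblast than in epiblast in each of the 10 embryos that had both, and VIM was the gene with germ cells next below EXMC.

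**Figure D1:**
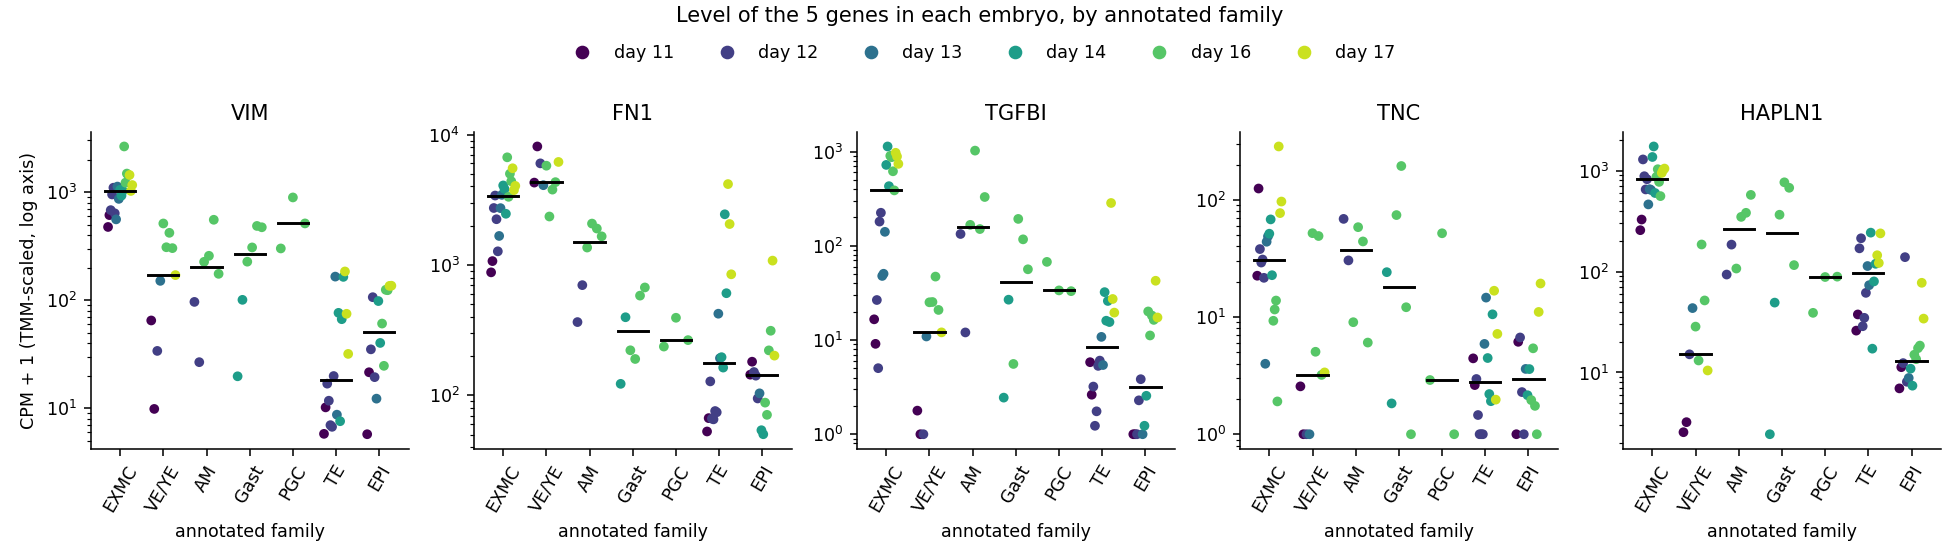
Level of each gene (CPM + 1, log axis) in every embryo, by annotated family; each point is 1 embryo, coloured by day, and bars are medians. EXMC holds the highest median of VIM, TGFBI and HAPLN1, VE/YE that of FN1 and AM that of TNC, and the ranges of neighbouring families overlap in each gene.

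For VIM, the filament gene, the median over embryos was 1025 CPM in EXMC (475 to 2641, n = 19), 512 CPM in PGC (300.2 to 891, n = 3) and 267 CPM in Gast (18.8 to 485, n = 6). It was 200.0 CPM in AM (25.7 to 554, n = 6), 169.8 CPM in VE/YE (8.88 to 512, n = 9) and 17.4 CPM in TE (4.82 to 184, n = 16), against 49.6 CPM in EPI (4.77 to 135, n = 14). EPI thus came next to last and TE last. The ranges of neighbours in this order overlapped throughout, but EXMC did not overlap EPI or TE, since its lowest embryo was above their highest. Germ cells, which came from 3 embryos of day 16, exceeded EPI of the same embryo in 3 of 3 (median difference 2.84), and TE exceeded EPI in 3 of 10 (-0.96).

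FN1, the fibronectin gene, had its highest median in endoderm, at 4313 CPM in VE/YE (2351 to 8101, n = 9). It was 3405 CPM in EXMC (876 to 6688, n = 19), 1507 CPM in AM (364 to 2075, n = 6) and 308 CPM in Gast (122 to 671, n = 6). It was 264 CPM in PGC (236 to 392, n = 3) and 177 CPM in TE (51.8 to 4168, n = 16), against 142 CPM in EPI (49.3 to 1078, n = 14). Endoderm and mesenchyme could not be ranked within embryos: VE/YE was above EXMC in 5 of 9 embryos, with differences of -0.50 to 2.92. Against epiblast, VE/YE was higher in 7 of 7 embryos (median difference 5.05) and AM in 6 of 6 (2.75), whereas TE was higher in 5 of 10. The TE range was wide, from the lowest embryo at day 11 to the highest at day 17.

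TGFBI, the matrix protein induced by transforming growth factor beta, had a median of 386 CPM in EXMC (4.03 to 1133, n = 19), 158 CPM in AM (11.0 to 1023, n = 6) and 40.6 CPM in Gast (1.45 to 192, n = 6). It was 32.6 CPM in PGC (32.0 to 66.5, n = 3), 11.1 CPM in VE/YE (0 to 46.1, n = 9) and 7.42 CPM in TE (0.229 to 284, n = 16), against 2.20 CPM in EPI (0 to 41.6, n = 14). The EXMC range overlapped with that of each other family, and AM reached into its upper part. The lowest EXMC embryos were of days 11 and 12. AM exceeded EPI in 6 of 6 embryos (median difference 3.69) and TE did so in 8 of 10 (2.06). AM and EXMC could not be ranked within embryos, with AM higher in 3 of 6.

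TNC, the tenascin-C gene, was counted least, with 4411 counts in all cells together. Its median was 36.3 CPM in AM (5.06 to 67.8, n = 6), 30.0 CPM in EXMC (0.905 to 284, n = 19) and 17.1 CPM in Gast (0 to 193, n = 6). It was 2.21 CPM in VE/YE (0 to 51.0, n = 9), 1.90 CPM in PGC (0 to 50.9, n = 3) and 1.79 CPM in TE (0 to 15.8, n = 16), against 1.94 CPM in EPI (0 to 18.3, n = 14). VE/YE, PGC, TE and EPI were all between 1.79 and 2.21 CPM at the median, and their order rests on a few counts. AM exceeded EPI in 6 of 6 embryos (median difference 3.40) and exceeded EXMC in 5 of 6 (1.26).

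HAPLN1, the link protein gene, had a median of 821 CPM in EXMC (256 to 1735, n = 19), 266 CPM in AM (92.4 to 574, n = 6) and 239.7 CPM in Gast (1.45 to 765, n = 6). It was 95.7 CPM in TE (16.2 to 242, n = 16), 87.3 CPM in PGC (38.0 to 88.0, n = 3) and 14.1 CPM in VE/YE (1.56 to 184, n = 9), against 12.0 CPM in EPI (5.96 to 138, n = 14). TE was above EPI in 10 of 10 embryos, with differences of 0.62 to 4.01 (median 1.83). Endoderm, first in FN1, was near the bottom here: VE/YE was below EXMC in 9 of 9 embryos (median difference -5.86) and above EPI in 3 of 7.

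Counted over all cells together, EXMC made up 33.38% of the cells and 31.81% of all counts but 81.31% of VIM, 87.74% of TGFBI, 78.03% of TNC and 81.39% of HAPLN1 counts. It held 66.02% of FN1 counts, and VE/YE, with 6.95% of the cells, held another 17.46%. EPI, with 20.92% of the cells, held between 0.99% (TGFBI) and 3.89% (VIM) of each gene. The source of the counts moved with day. VE/YE held 75.59% of FN1 counts at day 11 and 13.59% at day 17, and TE held 48.21% and 2.17% of TGFBI counts on these days. EXMC held 87.88% of TNC counts at day 14, 10.1% at day 16 and 95.12% at day 17, and at day 16 Gast held 36.75% and AM 24.34%.

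Among the late labels of the 4 day 16 embryos, the genes separated L-AM2 from L-AM1 and L-Gast2 from L-Gast1, with the higher levels in L-AM2 and L-Gast2. These sums hold 3 to 12 cells each, and the labels were drawn from the same counts, so the differences describe the labels and were not tested. The share of all genes with no overlap between these labels was not counted. In amnion the pattern covered the 4 matrix genes, and in gastrulating cells it covered VIM and HAPLN1 in 4 of 4 embryos. L-AM2 also carried more TNC than the mesenchyme of the same embryos.

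FN1 was at 2545, 2435, 3031 and 3077 CPM in L-AM2 of replicates 1 to 4, against 904, 756 and 428 CPM in L-AM1 of replicates 1, 3 and 4. TGFBI was at 462, 1211, 289.5 and 689.8 CPM in L-AM2, against 60.9, 10.1 and 10.2 CPM in L-AM1 of the same replicates. In both genes the 2 labels did not overlap. HAPLN1 was at 346, 408, 629.8 and 1202 CPM in L-AM2, against 22.7, 129.9 and 20.4 CPM in L-AM1, again with no overlap. TNC was at 24.7, 68.1, 85.1 and 5.39 CPM in L-AM2, against 2.20, 1.44 and 5.09 CPM in L-AM1, and replicate 4 was nearly equal in both. Within the 3 embryos with both labels the median difference was 2.00 for FN1, 4.71 for TGFBI, 3.00 for TNC and 3.87 for HAPLN1, higher in 3 of 3 for each. VIM was higher in 2 of 3, at 422, 302, 1055 and 108 CPM in L-AM2 against 150.4, 53.4 and 249.7 CPM in L-AM1.

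VIM was at 392, 392, 555 and 583 CPM in L-Gast2 of replicates 1 to 4, against 15.4, 27.9, 160.1 and 61.4 CPM in L-Gast1, and the labels did not overlap. HAPLN1 was at 651, 999, 826 and 136 CPM in L-Gast2, against 0, 5.59, 22.3 and 38.4 CPM in L-Gast1, the widest gap of the 5 genes (median difference 6.20). TGFBI was at 4.08, 246, 140.4 and 64.7 CPM in L-Gast2, against 5.13, 16.8, 10.1 and 23.0 CPM in L-Gast1, higher in 3 of 4. FN1 differed least, at 233, 168, 663 and 763 CPM in L-Gast2 against 203, 235, 197 and 376 CPM in L-Gast1. TNC was at 131, 253, 13.7 and 0 CPM in L-Gast2, against 0 in each L-Gast1 sum. TNC was counted in 13 of 35 L-Gast2 cells and in 0 of 15 L-Gast1 cells, which allows a share of up to 20% of L-Gast1 cells with a count, an allowance that covers counting error only. The median depth was 70609 counts in L-Gast2 and 73193 in L-Gast1. The 7 EXMC markers did not all go the same way between these 35 and 15 cells. HGF (28 and 9 cells with a count), LUM (24 and 8) and POSTN (9 and 2) had the higher share in L-Gast2. DCN (25 and 13), COL1A1 (27 and 12), COL1A2 (30 and 13) and COL3A1 (31 and 15) had the higher share in L-Gast1. Thinned to 20000 counts a cell, which kept 29 and 14 cells, the collagens turned round. COL1A1 (69.0% and 42.9%), COL1A2 (62.1% and 50.0%) and COL3A1 (82.8% and 71.4%) were then higher in L-Gast2. So were HGF (75.9% and 35.7%) and LUM (48.3% and 28.6%), whereas DCN (48.3% and 50.0%) and POSTN (6.9% and 14.3%) were higher in L-Gast1.

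**Figure D2:**
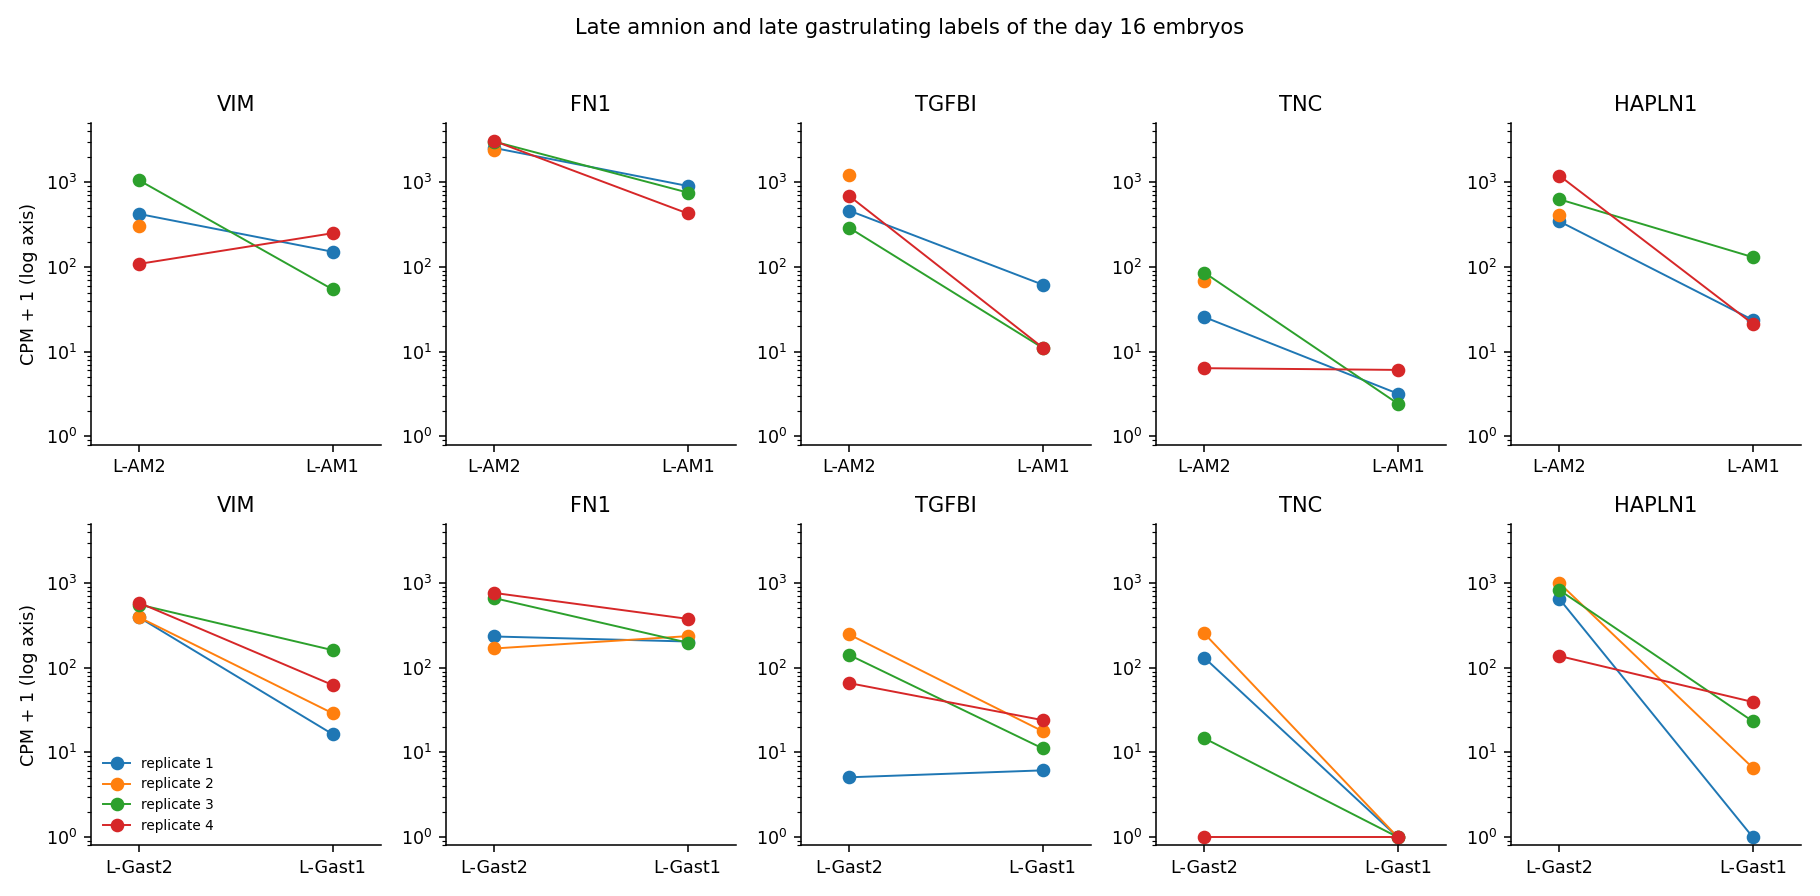
Levels (CPM + 1, log axis) of the 5 genes in the day 16 embryos, with L-AM2 left of L-AM1 in the upper row and L-Gast2 left of L-Gast1 in the lower row; points are embryos and lines join the labels of 1 embryo. FN1, TGFBI and HAPLN1 lie higher in L-AM2 in all 3 joined embryos, and VIM and HAPLN1 lie higher in L-Gast2 in all 4.

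Set beside the mesenchyme of the same 4 embryos, these late labels reached its level in some genes. EXMC was above L-Gast2 in 4 of 4 for VIM (median difference 1.48) and FN1 (3.57), but in 2 of 4 for HAPLN1 (0.18). EXMC was above L-AM2 in 2 of 4 for TGFBI (0.19) and in 0 of 4 for TNC (-2.18). Against the late epiblast, L-Gast2 was above postL-EPI in 4 of 4 for VIM (2.42), FN1 (1.34) and HAPLN1 (5.50), and L-AM2 was above it in 4 of 4 for each gene but VIM.

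Across the 12 labels the order by median put EXMC first for VIM and HAPLN1, VE/YE first for FN1, L-AM2 first for TGFBI and L-Gast2 first for TNC. L-AM2 reached 576 CPM of TGFBI at the median, and EXMC, over all days, 307 CPM. The L-AM2 sums are all of day 16, and EXMC of those embryos had a median of 722 CPM, so this order did not hold on that day. Of neighbours in these orders, only L-AM2 over L-AM1 for FN1 and L-AM2 over TE for HAPLN1 had ranges that did not overlap. Lowest were TE for VIM (17.7 CPM), E-Gast for FN1 (144), L-Gast1 for TNC (0) and postE-EPI for TGFBI (0.250) and HAPLN1 (10.8). The early gastrulating label was below L-Gast2 at the median of each gene, with 81.3 CPM of VIM and 31.3 CPM of HAPLN1 over 3 embryos.

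Within the epiblast, 1 of the 5 genes rose with day. In the embryos with at least 5 EPI cells, TGFBI was at or near 0 up to day 14 and above 10 CPM on days 16 and 17. All postE-EPI cells came from days 11 to 14 and all postL-EPI cells from days 16 and 17, so day and annotated label cannot be told apart. VIM, FN1 and HAPLN1 did not pass the test, and TNC had too few counts to be fitted. The fit held 14 embryos with 284 EPI cells, and 4 of the 5 genes passed the filter on low counts. Beside this 1 of 4, 1.94% of the 11589 genes tested rose and 1.87% fell, and the median slope over all of them was 0.01. TGFBI passed the filter through its late sums, where it is high, so the 1 of 4 is a description only.

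TGFBI in EPI was at 0 and 0 CPM at day 11, 0, 1.29 and 2.84 CPM at day 12, 0 CPM in 1 embryo of day 13 and 0.230 and 1.56 CPM at day 14. It was at 19.1, 10.2, 17.2 and 15.4 CPM at day 16 and 41.6 and 16.3 CPM at day 17. These 6 later embryos did not overlap with the 8 earlier ones. Replicate 1 of day 13, left out of the fit for its 4 EPI cells, was at 18.6 CPM, within the day 16 range. The slope was 1.14 ± 0.21 log2 per day (SE; adjusted p = 0.00281), and 0.82 with sums of at least 3 cells (adjusted p = 0.00954). With no filter on low counts it was 1.15 (adjusted p = 0.0019). The fitted values step up between day 14 and day 16, so the slope does not show a steady rise. TGFBI was counted in 0 of 19, 3 of 36, 4 of 17, 13 of 98, 46 of 101 and 25 of 33 EPI cells on days 11, 12, 13, 14, 16 and 17. With developmental stage embryos alone the slope was 1.02 (adjusted p = 0.0402), and without day 16 or without day 17 the filter on low counts removed TGFBI, which could then not be tested.

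Among the EXMC markers tested in these cells, 2 rose with day and 5 were not called. Of the 7 EXMC markers, DCN and LUM, both small collagen-binding proteoglycans, rose in EPI, by 0.86 ± 0.17 (adjusted p = 0.00543) and 0.84 ± 0.15 (adjusted p = 0.00267) log2 per day, and the median slope of the 7 was 0.49. The summed level of the 7 ran from 273 to 872 CPM in the day 16 and from 840 to 1149 CPM in the day 17 sums of EPI, with 173 to 594 CPM in EPI up to day 14 and 2484 to 30830 CPM in EXMC. TGFBI in EPI stood at 2.45% of the EXMC level of the same embryo at day 16 and 3.06% at day 17, and the median of the 7 markers stood at 2.25% and 4.02%. On days 11, 12, 13 and 14 TGFBI stood at 0%, 1.58%, 0% and 0.364%. The median marker stood at 10.4%, 6.32%, 1.06% and 0.558% on those days, so the 2 did not run alike over all days. Thinned to 20000 counts a cell, which left out 19 of 134 postL-EPI and 38 of 170 postE-EPI cells, TGFBI was counted in 27.0% of 115 postL-EPI cells, against 4.55% of 132 postE-EPI cells. Of the EXMC markers, DCN was then counted in 49.6% of postL-EPI cells, against 6.06% of postE-EPI cells. The pairs were 55.65% and 9.09% for LUM, 74.8% and 22.7% for COL3A1, and 65.2% and 41.7% for COL1A2. They were 19.1% and 3.79% for POSTN, 24.35% and 18.2% for HGF, and 67.8% and 76.5% for COL1A1. The TGFBI share of postL-EPI cells thus lay above those of POSTN and HGF and below those of the other markers. Unthinned, with a median depth of 86322.5 and 57125.5 counts, TGFBI was counted in 53.0% of postL-EPI and 11.8% of postE-EPI cells. Without the 20 of 304 EPI cells whose EXMC markers summed to over 10% of the median EXMC cell, TGFBI rose by 1.20 log2 per day (adjusted p = 0.00361). Most of the cells left out were late, with 11 of 33 at day 17 and 6 of 101 at day 16, against 1 of 98 at day 14 and 0 of 19 at day 11. The median summed marker level per EPI cell was 1120 CPM at day 17 and 194 CPM at day 14. The part of EXMC RNA in the cells kept was not tested.

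VIM in EPI was at 4.77 and 20.6 CPM at day 11, 34.2, 106 and 18.4 CPM at day 12, 11.3 CPM at day 13 and 97.3 and 39.3 CPM at day 14. It was at 59.9, 23.7, 124 and 123 CPM at day 16 and 135 and 135 CPM at day 17. Early and late embryos overlapped, and the slope of 0.36 ± 0.12 missed the threshold (adjusted p = 0.112). It passed without the cells rich in EXMC markers (0.45, adjusted p = 0.0194) and with DESeq2 (0.36, adjusted p = 0.0403). Leaving out 1 embryo at a time, it passed without replicate 2 of day 12 (0.51, adjusted p = 0.0167).

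FN1 in EPI was at 143 and 180.1 CPM at day 11, 149.9, 141 and 93.6 CPM at day 12, 103 CPM at day 13, 53.0 and 49.3 CPM at day 14, 86.9, 69.9, 220.2 and 312 CPM at day 16 and 1078 and 201 CPM at day 17. The lowest embryos were those of day 14, and replicate 1 of day 17, a culture stage embryo, was far above the rest. The slope was 0.27 ± 0.12 (adjusted p = 0.223) and 0.02 without day 17. HAPLN1 in EPI ran from 5.96 to 17.5 CPM in 11 of the 14 embryos, with higher values in replicate 2 of day 12 (138 CPM) and at day 17 (76.4 and 33.2 CPM), and its slope was 0.03 ± 0.16 (adjusted p = 0.940). TNC in EPI ran from 0 to 5.69 CPM up to day 16 and was at 10.1 and 18.3 CPM at day 17.

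In the epiblast, 2 genes rose and 2 fell among 53 tested genes of 5 lists of the wider programme (transition transcription factors, epithelial genes, receptors and partners of the 5 proteins, the TGF-beta pathway, and other filaments and cytoskeleton). Over all genes tested 1.94% rose and 1.87% fell. Of the 53, 14 had an unadjusted p under 0.05, beside 2204 of all 11589 genes tested. The rising ones were NES, a filament of neural progenitors (0.33 ± 0.08, adjusted p = 0.0202), and CDH2, the N-cadherin of mesenchymal and neural cells (0.47 ± 0.12, adjusted p = 0.0339). The falling ones were KRT8, a keratin of simple epithelia (-0.25 ± 0.07, adjusted p = 0.0375), and TGFBR3, a co-receptor for TGF-beta (-0.45 ± 0.11, adjusted p = 0.0316). Of 14 receptors and partners edgeR called 0 (3 at an unadjusted p under 0.05, 0 by DESeq2), and of 3 transcription factors 0 (1 unadjusted, 0 by DESeq2). The median slope over the 53 was 0.03, near the 0.01 over all genes.

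Within the trophoblast, FN1 and TGFBI rose by about 1 log2 unit per day, and VIM, TNC and HAPLN1 did not pass the test. The fit held 16 embryos with 376 TE cells, with no day 16 sum, and each of the 5 genes passed the filter on low counts. Beside these 2 of 5, 8.07% of the 12205 genes tested rose and 6.78% fell, and the median slope over all of them was -0.01.

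FN1 in TE was at 51.8 and 65.9 CPM at day 11, 127, 65.3, 64.5, 74.8 and 73.1 CPM at day 12 and 422 and 192 CPM at day 13. It was at 195, 162, 2445 and 606 CPM at day 14 and 4168, 2058 and 847 CPM at day 17. Each embryo from day 13 on was above each embryo of days 11 and 12, and replicate 3 of day 14 was already in the day 17 range. The slope was 1.01 ± 0.15 log2 per day (adjusted p = 6.07e-04). Per cell the day 17 level was spread widely, with a median of 2407 CPM and quartiles of 360.4 and 3719.6 CPM over 21 cells.

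TGFBI in TE was at 4.82 and 1.63 CPM at day 11, 2.21, 0.229, 0.750, 4.32 and 5.04 CPM at day 12 and 9.80 and 4.43 CPM at day 13. It was at 31.2, 15.0, 25.0 and 14.5 CPM at day 14 and 284, 26.3 and 18.5 CPM at day 17. The day 14 and day 17 embryos were all above the earlier ones, and replicate 1 of day 17 stood apart at the top. The slope was 1.00 ± 0.14 log2 per day (adjusted p = 2.50e-04), and leaving out 1 embryo at a time it ran from 0.72 to 1.10 and stayed called.

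Both calls changed with the embryos kept in the fit. With the label type as a covariate FN1 (1.01, adjusted p = 0.00564) and TGFBI (1.005, adjusted p = 0.00274) were both called. With developmental stage embryos alone the slope was 1.13 for FN1 (adjusted p = 0.0704) and 0.82 for TGFBI (adjusted p = 0.111), and neither was called. Without day 17 FN1 was still called (1.42, adjusted p = 0.0416) and TGFBI was not (1.10, adjusted p = 0.0942). The culture stage embryos alone are 1 of day 12, 2 of day 13 and 2 of day 17, too few for a fit. Leaving them out also makes the fit smaller, so the part of the label cannot be told apart from that of fewer embryos.

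Of the 7 EXMC markers, 6 also rose in TE, with a median slope of 0.82, for example COL1A1 by 0.82 ± 0.11 (adjusted p = 2.55e-04). Their summed level was 67.4 to 67.5 CPM at day 11 and 516 to 2051 CPM at day 17 in TE, with 14935 to 19453 CPM in EXMC of day 17. Without the 18 of 380 TE cells rich in these markers, FN1 rose by 1.04 (adjusted p = 8.79e-04) and TGFBI by 0.99 (adjusted p = 8.01e-04), close to the slopes with them. The cells left out were 0 of 90 at day 11, 4 of 128 at day 12, 4 of 76 at day 13, 6 of 62 at day 14 and 4 of 21 at day 17. The median summed marker level per TE cell was 49.0 CPM at day 11 and 846 CPM at day 17. What EXMC RNA adds in the TE cells kept was not tested. At day 17 FN1 in TE stood at 54.9% of the EXMC level of the same embryo at the median, TGFBI at 2.96% and the median marker at 8.65%. At the median FN1 was thus above the markers by this measure and TGFBI below them.

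VIM in TE was at 4.82 and 9.22 CPM at day 11, 15.9, 10.8, 5.997, 5.75 and 18.9 CPM at day 12, 164 and 7.75 CPM at day 13, 75.5, 6.61, 65.8 and 163 CPM at day 14 and 184, 73.9 and 30.9 CPM at day 17. Embryos of the same day were far apart at days 13 and 14, and the slope of 0.64 ± 0.22 missed the threshold (adjusted p = 0.0573). It was called with DESeq2 (0.66, adjusted p = 8.26e-04) and without the cells rich in EXMC markers (0.57, adjusted p = 0.0405). With 1 embryo left out, it was called in 4 of 16 fits, without replicate 1 of day 13 (adjusted p = 0.00818), replicate 2 (0.0464) or 4 (0.0472) of day 14, or replicate 3 of day 17 (0.0419). TNC had a slope of 0.40 ± 0.22 (adjusted p = 0.239), with 0 to 15.8 CPM over the 16 embryos. HAPLN1, at 16.2 to 242 CPM, had a slope of 0.27 ± 0.13 (adjusted p = 0.177).

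Of the 15 receptors and partners of these proteins tested in TE, 8 rose and 1 fell, with a median slope of 0.33. SPARC, a collagen-binding matrix protein, rose by 0.65 ± 0.08 (adjusted p = 1.68e-04), ITGB1, the integrin chain shared by the fibronectin receptors, by 0.33 ± 0.06 (adjusted p = 0.00199), and FBN1, a microfibril protein, by 1.37 ± 0.25 (adjusted p = 0.00293). ACAN, the cartilage proteoglycan, fell by 1.05 log2 per day (adjusted p = 0.00664). ITGA5, the partner chain of ITGB1 in the main fibronectin receptor, which was named after its values were seen, rose by 0.48 ± 0.12 (adjusted p = 0.0116).

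Of 9 cytoskeletal genes 4 rose in TE, among them the smooth muscle genes ACTA2 (1.39 ± 0.21, adjusted p = 9.17e-04) and TAGLN (1.12 ± 0.18, adjusted p = 0.00150) and the calcium-binding S100A10 (0.26) and S100A6 (0.34). Of 13 TGF-beta pathway genes 3 rose and 1 fell. Among them LTBP1, which stores latent TGF-beta in matrix, rose by 0.36 (adjusted p = 0.0226) and the ligand TGFB2 by 1.24, while the ligand TGFB3 fell by 0.83. TCF4 was the 1 transcription factor of 4 that rose (0.44), and DSP, a desmosome protein, the 1 epithelial gene of 16 (0.21). The median slope was 0.34 for the cytoskeletal, 0.16 for the TGF-beta, 0.26 for the transcription factor and -0.0039 for the epithelial list.

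**Figure D3:**
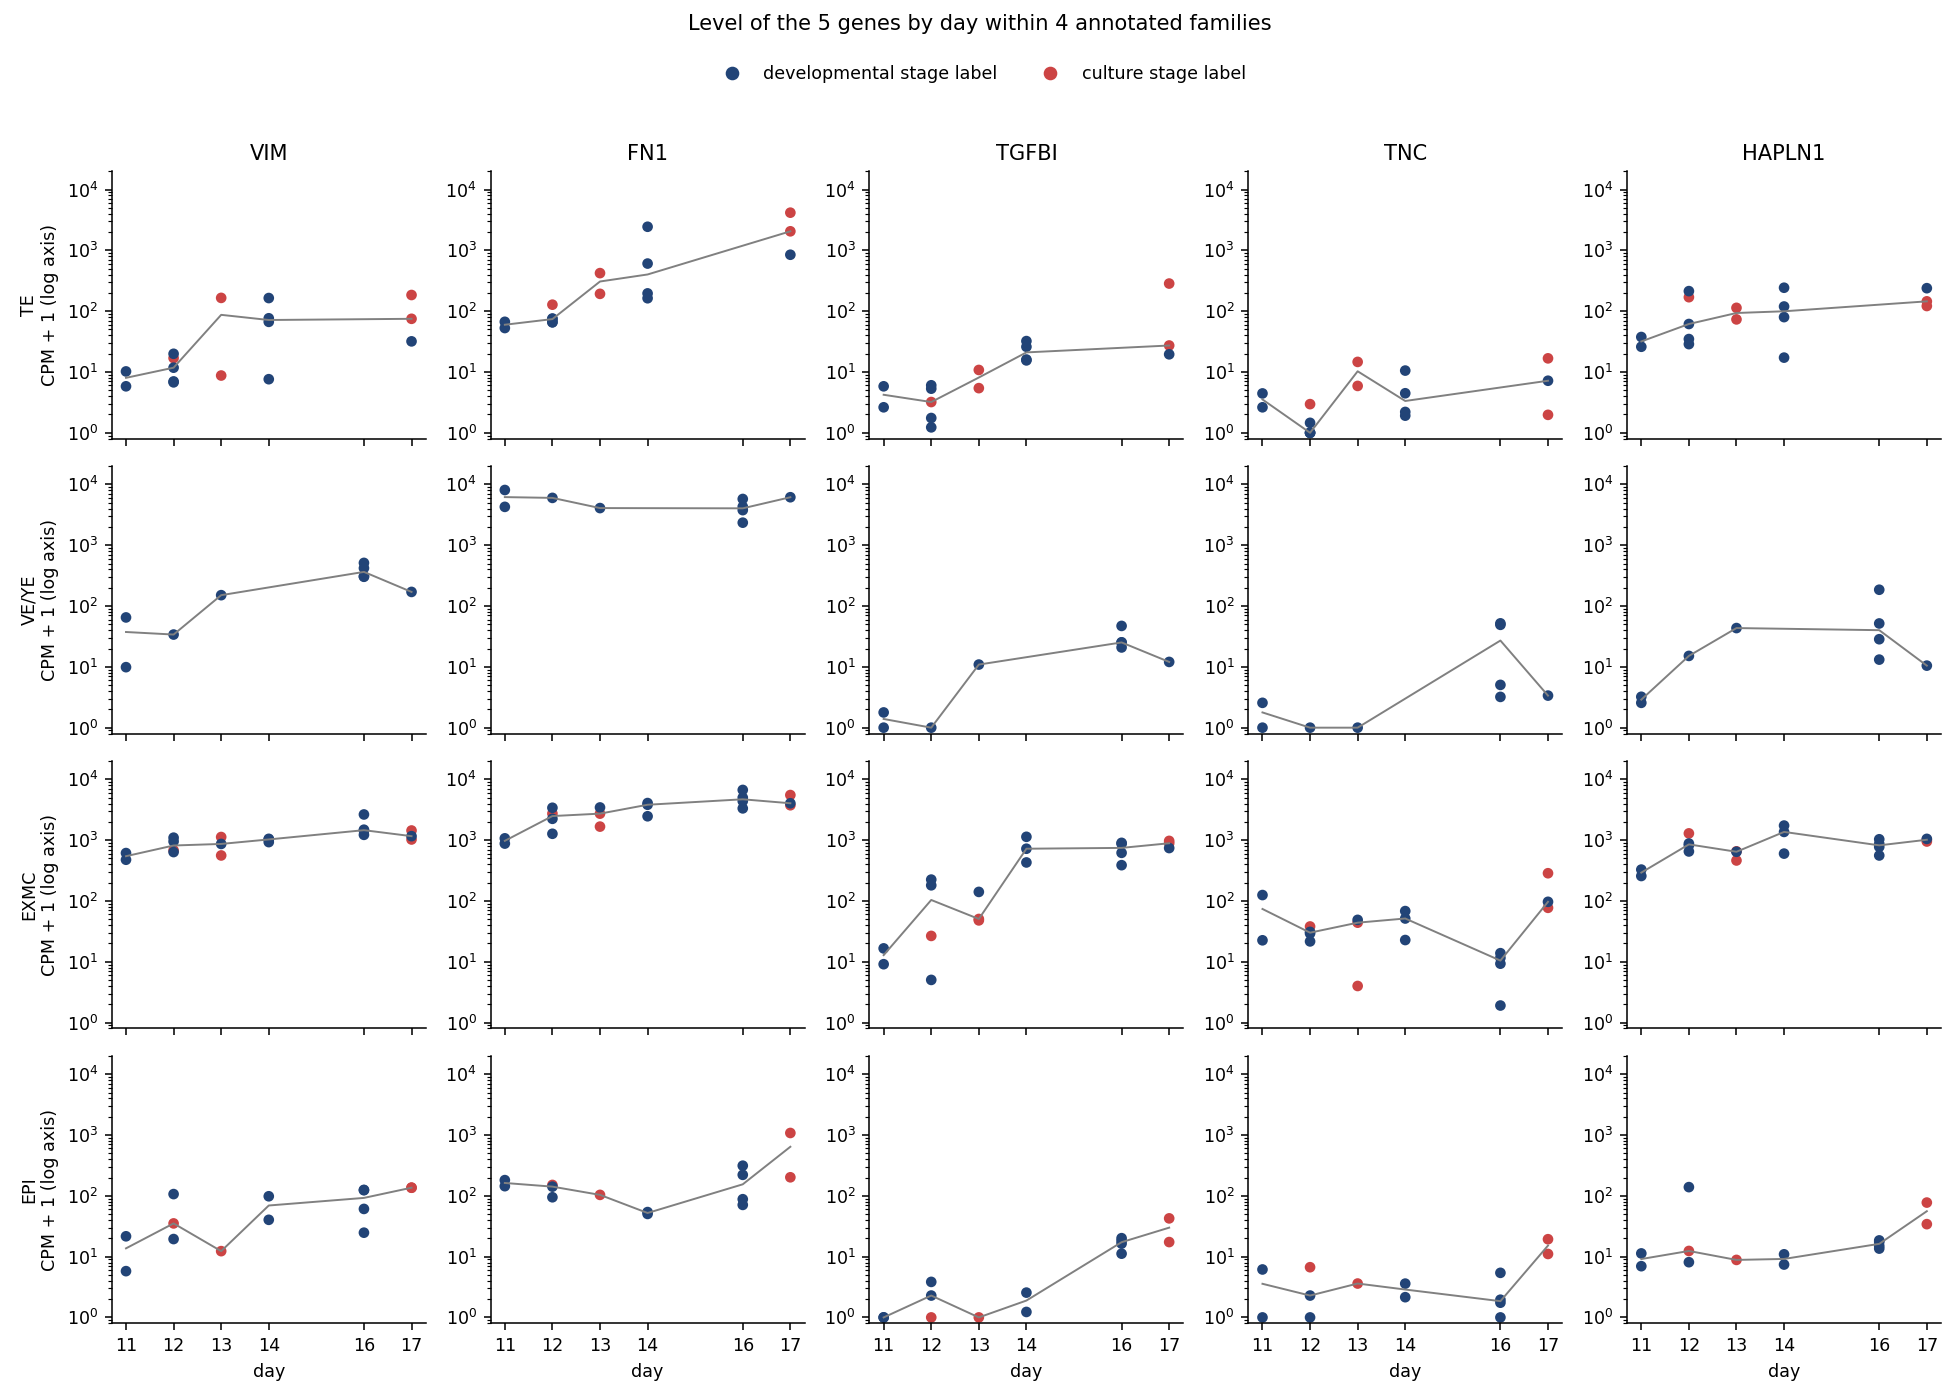
Level (CPM + 1, log axis) of the 5 genes by day in TE, VE/YE, EXMC and EPI; each point is 1 embryo, coloured by the kind of stage label, and lines join the medians of the days. FN1 and TGFBI climb with day in TE and TGFBI climbs from day 14 to day 16 in EPI, while FN1 stays between 2351 and 8101 CPM in VE/YE.

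FN1 had a steeper slope in trophoblast than in epiblast. In the 10 embryos with sums of both, the slope in TE minus that in EPI was 0.75 ± 0.13 log2 per day with the embryo as a block (adjusted p = 0.00718). Of the 5 genes, 3 passed the filter on low counts in this fit, and FN1 was the 1 called, beside 2.15% of the 10209 genes tested with a higher slope in TE. For VIM the difference was 0.24 ± 0.21 (adjusted p = 0.603) and for HAPLN1 -0.08 ± 0.17 (adjusted p = 0.853). TGFBI and TNC could not be compared, so the TGFBI slopes in TE and EPI, 1.00 and 1.14, were not tested against each other.

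The FN1 difference was lost without replicate 2 of day 17 (0.74, adjusted p = 0.0570), with developmental stage embryos alone (1.40, adjusted p = 0.111) and with at least 10 cells per sum (0.69, adjusted p = 0.152). Among its partners, SPARC (0.36 ± 0.06, adjusted p = 0.00513), ITGB1 (0.42 ± 0.09, adjusted p = 0.0189) and HAS2, which makes hyaluronan (0.93 ± 0.15, adjusted p = 0.00284), likewise had a higher slope in TE, 3 of 11 tested. In the TGF-beta list 2 of 12 did, CCN2 (1.04) and the inhibitor SMAD7 (0.61). TCF4 did among 3 transcription factors (0.42), and edgeR called 0 of 16 epithelial genes (2 at an unadjusted p under 0.05, 1 by DESeq2) and 0 of 6 cytoskeletal genes (2 unadjusted, 2 by DESeq2). Of all 10209 genes tested, 1844 had an unadjusted p under 0.05 and DESeq2 called 982.

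In the endoderm FN1 was high from the first day on, and the slope of VIM missed the threshold. The fit held 9 developmental stage embryos with 75 VE/YE cells, and 3 of the 5 genes passed the filter on low counts. Beside 0.132% of 7602 genes that rose, edgeR called 0 of the 3, while 2 had an unadjusted p under 0.05 and DESeq2 called 1, VIM. Of all 7602 genes, 724 had an unadjusted p under 0.05 and DESeq2 called 153. The median slope over all genes was 0.02.

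VIM in VE/YE was at 64.0 and 8.88 CPM at day 11, 33.0 CPM at day 12, 150.0 CPM at day 13, 512, 308, 419 and 302 CPM at day 16 and 169.8 CPM at day 17. The 5 late embryos were above the 4 early ones, but sums of 3 or 4 cells overlapped, with 277 CPM in replicate 5 of day 12 and 114 and 79.5 CPM in replicates 1 and 2 of day 17. The slope was 0.60 ± 0.13 log2 per day (adjusted p = 0.0507, unadjusted 9.48e-05), and without the single day 17 embryo it was 0.68 and called (adjusted p = 0.00317). It was 0.36 with sums of at least 3 cells (adjusted p = 0.239) and 0.39 without day 16 (adjusted p = 0.416). FN1 in VE/YE was at 4279 and 8101 CPM at day 11, 6009.6 CPM at day 12, 4086 CPM at day 13, 5767, 2351, 3780.2 and 4313 CPM at day 16 and 6161 CPM at day 17. No order by day is visible in FN1, and its slope was -0.07 ± 0.07 (adjusted p = 0.826).

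HAPLN1 in VE/YE was at 1.56 and 2.22 CPM at day 11, 14.1 CPM at day 12, 42.5 CPM at day 13, 27.5, 12.2, 184 and 50.7 CPM at day 16 and 9.47 CPM at day 17, with a slope of 0.62 ± 0.25 (adjusted p = 0.418). TGFBI and TNC were not fitted. TGFBI was at 0 to 0.78 CPM on days 11 and 12 and at 24.1, 24.3, 46.1 and 19.9 CPM at day 16. TNC at day 16 was at 51.0, 4.05, 48.1 and 2.21 CPM, from 6 of 39 cells with a count. Of the EXMC markers DCN rose in VE/YE (1.51 ± 0.28, adjusted p = 0.0350), and the summed level of the 7 was 272 to 823 CPM at day 16, with 17.8 to 202 CPM at day 11. Without the 8 of 101 cells rich in them the VIM slope was 0.64 (adjusted p = 0.0742). Over the 5 gene lists edgeR called 0 of 35 tested genes in VE/YE, with 3 at an unadjusted p under 0.05 and 0 by DESeq2. Over all 7602 genes these were 724 and 153.

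**Figure D4:**
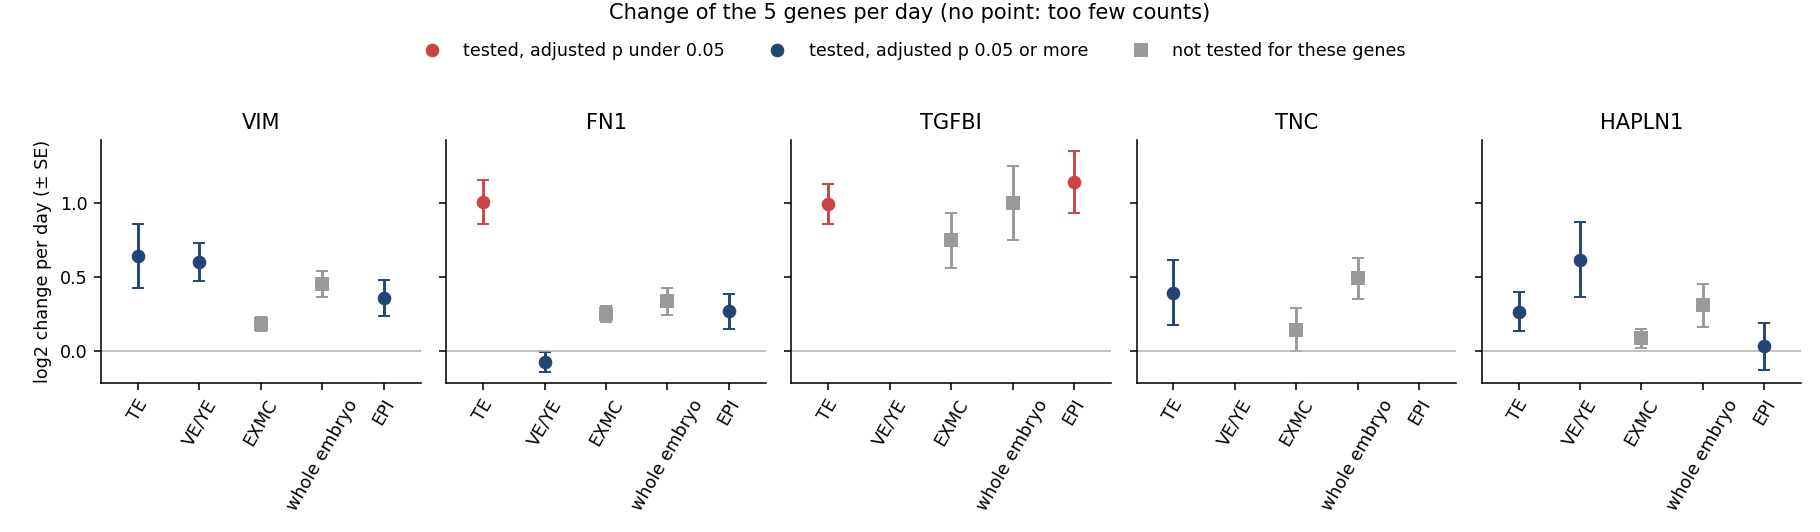
Log2 change per day (± SE) of the 5 genes in TE, VE/YE, EXMC, whole-embryo sums and EPI; red points were called at an adjusted p under 0.05, blue points were tested and not called, and grey squares are values with no test. TGFBI is called in TE and EPI and FN1 in TE, while FN1 in VE/YE lies next to 0.

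Within the mesenchyme itself, where no test is given for these 5 genes, TGFBI had the steepest slope and TNC differed most from day to day late on. TGFBI in EXMC was at 15.6 and 8.11 CPM at day 11, 25.6, 4.03, 179.7 and 223 CPM at day 12, 46.9, 49.5 and 139.7 CPM at day 13, 721, 1133 and 428 CPM at day 14, 901, 871, 617 and 386 CPM at day 16 and 970.1, 887 and 739.8 CPM at day 17. All embryos from day 14 on were above all earlier ones, and the slope was 0.75 ± 0.19 log2 per day over 19 embryos. TGFBI was counted in 8 of 23, 22 of 45, 36 of 45, 125 of 130, 81 of 86 and 154 of 156 EXMC cells on these days. EXMC cells of day 11 thus included many with no TGFBI count, although VIM was counted in 22 of 23 of them. In TE of day 11 TGFBI was counted in 12 of 90 cells.

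FN1 in EXMC was at 876 and 1069 CPM at day 11, 2732, 3405, 2241 and 1271 CPM at day 12, 1668, 2726 and 3446 CPM at day 13, 4069, 3817 and 2467 CPM at day 14, 6688, 3328, 5003 and 4382 CPM at day 16 and 5512, 3746 and 4037 CPM at day 17 (slope 0.25 ± 0.05). VIM in EXMC was at 475 and 612 CPM at day 11, 679.8, 949.8, 1096 and 635 CPM at day 12, 558, 1124 and 864 CPM at day 13, 1049, 927 and 1025 CPM at day 14, 2641, 1221, 1482 and 1431 CPM at day 16 and 1439, 1024 and 1161 CPM at day 17 (slope 0.18 ± 0.05). Both had their lowest embryo at day 11 and their highest at day 16. HAPLN1, at 256 and 327 CPM at day 11 and 462 to 1735 CPM later, had a slope of 0.09 ± 0.06.

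TNC in EXMC was at 21.5 and 124 CPM at day 11, 37.0, 28.2, 30.0 and 20.6 CPM at day 12, 2.99, 42.9 and 47.8 CPM at day 13, 50.4, 67.1 and 21.7 CPM at day 14, 8.29, 10.6, 12.8 and 0.905 CPM at day 16 and 284, 76.1 and 95.7 CPM at day 17. Day 16 was low in its 4 embryos and day 17 high in its 3, and these days did not overlap. The slope was 0.15 ± 0.15 over all days and -0.50 without day 17, and -0.06 without replicate 1 of that day. TNC was counted in 21 of 86 EXMC cells at day 16 and 99 of 156 at day 17, where 65.3% of its summed CPM lay in the top 10% of cells, and in 7 of 21 TE cells of day 17. The 4 other genes showed no such drop at day 16. Both day 17 embryos with culture stage labels and the 1 with a developmental stage label were above the day 16 embryos.

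Other genes of the lists, for which EXMC was tested, rose in part. Beside 7.15% of 11056 genes that rose and 4.64% that fell in EXMC, 7 of 17 receptors and partners rose and 0 fell, with a median slope of 0.24 against 0.02 over all genes. SPARC rose by 0.37 ± 0.05 (adjusted p = 1.37e-05), ITGB1 by 0.23 ± 0.04 (adjusted p = 0.00118), ITGA8, an integrin chain of mesenchyme that binds fibronectin, by 0.93 ± 0.21 (adjusted p = 0.00478) and LOX, the collagen cross-linking enzyme, by 0.71 ± 0.16 (adjusted p = 0.00530). VCAN and HAS2, which with HAPLN1 build hyaluronan matrix and were named after their values were seen, rose by 0.24 and 0.28. Of 10 cytoskeletal genes TAGLN (0.60), ACTA2 (0.88) and the mesenchymal cadherin CDH11 (0.22) rose. LTBP1 (0.73) and TGFBR3 (0.28) rose among 14 TGF-beta genes, ZEB1, a transition factor, among 5 (0.49), and the claudin CLDN6 among 12 epithelial genes (0.41).

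Amnion and gastrulating cells had sums on 2 days each and were not tested. The share of all genes with no overlap between those days was not counted. In AM, VIM was at 95.5 and 25.7 CPM at day 12 and 226, 257, 554 and 174 CPM at day 16, FN1 at 364 and 699 CPM and 1358, 2075, 1901 and 1656 CPM, and the days did not overlap in either gene. TGFBI in AM was at 132 and 11.0 CPM at day 12 and 166, 1023, 149.6 and 329 CPM at day 16, again apart. TNC in AM overlapped between day 12 (67.8 and 29.4 CPM) and day 16 (8.04, 57.5, 43.2 and 5.06 CPM), and so did HAPLN1 (92.4 and 184 CPM and 106, 347, 381 and 574 CPM).

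In Gast, VIM was at 18.8 and 99.8 CPM at day 14 and 226, 307, 485 and 472 CPM at day 16, and HAPLN1 at 1.45 and 48.3 CPM and 365, 765, 675 and 115 CPM, with no overlap in either gene. FN1, TGFBI and TNC overlapped between the days. The late sums mix L-Gast1 and L-Gast2, which differed in VIM and HAPLN1 as given above. PGC sums came from day 16 alone: VIM was at 300.2, 891 and 512 CPM there, FN1 at 236, 392 and 264 CPM, TGFBI at 66.5, 32.6 and 32.0 CPM, TNC at 1.90, 50.9 and 0 CPM and HAPLN1 at 38.0, 87.3 and 88.0 CPM. VIM was counted in 18 of 18 E-PGC cells. Of the EXMC markers, COL1A1 and COL3A1 were counted in 17 each, COL1A2 and DCN in 16 each, LUM in 15, HGF in 13 and POSTN in 4.

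Relative to EXMC of the same embryo, FN1 in TE was at 6.04%, 3.76%, 16.2%, 24.6% and 54.9% at the median on days 11, 12, 13, 14 and 17. The median EXMC marker in TE was at 9.90%, 2.48%, 7.64%, 5.30% and 8.65% on these days. VIM in TE was at 1.26%, 1.74%, 15.1%, 7.20% and 7.22% on the same days. HAPLN1 in TE was at 10.2% to 17.7% of EXMC on each day, and FN1 was above the median marker on days 12, 13, 14 and 17. In EPI, VIM was at 5.31% at day 16 and 11.3% at day 17, FN1 at 3.25% and 12.5%, and HAPLN1 at 1.87% and 5.67%, with the median marker at 2.25% and 4.02%. How much of any level outside EXMC is RNA from EXMC cells was not tested.

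**Figure D5:**
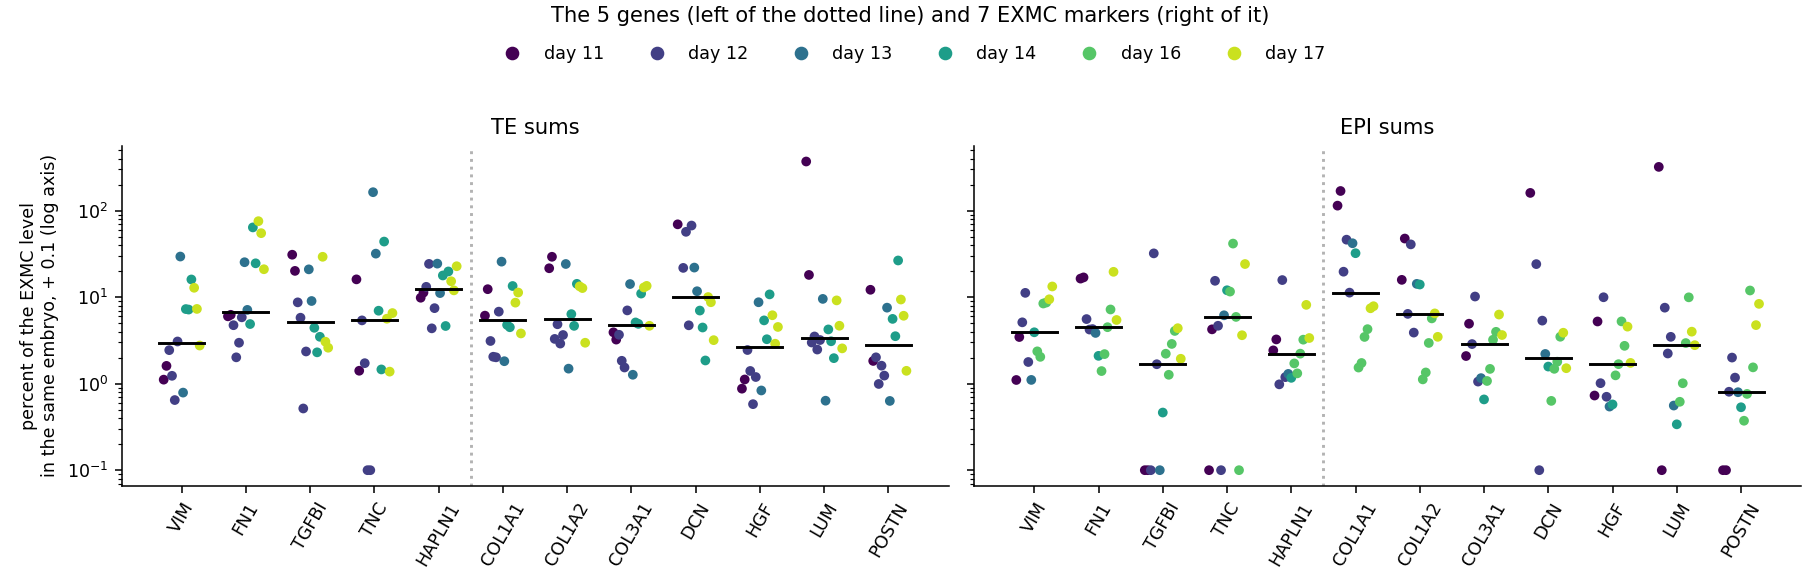
Level of the 5 genes (left of the dotted line) and of 7 EXMC markers (right of it) in TE and EPI sums, as a percentage of the EXMC level in the same embryo (+ 0.1, log axis); points are embryos coloured by day and bars are medians. FN1 in TE climbs to 20.97% to 75.62% at day 17, above most markers, while TGFBI in EPI lies among the markers at days 16 and 17.

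Summed over all cells of an embryo, the 5 genes had positive slopes, given with no test: 0.45 ± 0.09 for VIM, 0.34 ± 0.09 for FN1, 1.00 ± 0.25 for TGFBI, 0.49 ± 0.14 for TNC and 0.31 ± 0.15 for HAPLN1 (log2 per day ± SE, 21 embryos). VIM ran from 66.8 to 984 CPM and TGFBI from 1.07 to 714 CPM. At day 14 the embryos stood far apart, with TGFBI at 493, 3.96, 714 and 41.1 CPM and VIM at 722, 66.8, 598 and 145 CPM, and more EXMC cells were picked at day 17 (67.83% of cells) than at day 11 (14.94%). In such sums more cells of a type and more RNA per cell cannot be told apart. The VIM slope was 0.18 ± 0.05 within EXMC, 0.36 ± 0.12 within EPI and 0.45 ± 0.09 over whole embryos.

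In the whole-embryo sums 11.4% of 15924 genes rose and 10.5% fell. Of 16 epithelial genes 6 fell and 0 rose. CLDN4, RAB25, KRT18 and CLDN7 had the smallest adjusted p, and of these the tight junction gene CLDN4 fell by 0.44 (adjusted p = 0.00442) and the vesicle traffic gene RAB25 by 0.29 (adjusted p = 0.00839). Of 20 receptors and partners 8 rose and 2 fell (ACAN and ITGB3), and of 11 cytoskeletal genes 5 rose, NES (0.48, adjusted p = 2.66e-04) and DES, the muscle filament (0.68, adjusted p = 0.00196), among them. The transition factors TWIST2 (0.88) and ZEB1 (0.82) rose of 7 tested, and TGFB1 rose (0.41) and SMAD7 fell (by 0.21) of 14 TGF-beta genes. The share of TE cells, which carry the highest CLDN4 and CLDN7 medians, was 58.44% at day 11 and 9.13% at day 17.

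Across families, other genes of the programme peaked in different places, and the genes named here were chosen after their values were seen. How many of all genes peak in each family was not counted. Of 10 transition factors 6 had their highest median in EXMC, ZEB2 at 389 CPM against 26.2 CPM in EPI and TWIST1 at 51.5 CPM against 0.964 CPM. SNAI2 is among these 6, at 0.2 CPM in EXMC and 0 in the other families. Of 20 receptors and partners 10 peaked in EXMC, SPARC at 1182 CPM against 119 CPM in EPI and VCAN at 1339.8 CPM against 176 CPM. These 10 include POSTN, which is also on the list of EXMC markers. HAS2 was highest in Gast (894 CPM, against 111 CPM in EPI), and the integrin chain ITGB3 was at a median above 0 in TE (8.74 CPM) and EXMC (0.151 CPM) and at 0 in the rest. Of 16 epithelial genes 8 were highest in AM, where KRT18 was at 1793 CPM against 102 CPM in EPI, so amnion held the highest TNC and the highest KRT18 median together. CDH2 was highest in VE/YE (766 CPM, against 29.7 CPM in EPI). SNAI2, FOXC1 and FOXC2 had medians under 1 CPM in each family.

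The genes whose levels were most like those of the 5 included collagens and EXMC markers, by Pearson r over 73 embryo-by-family sums and 16253 genes. For VIM these were COL5A1 (0.88), COL3A1 (0.86) and the coagulation factor gene F5 (0.85). For FN1 they were LOC101867429 (0.87), the basement membrane collagen COL4A1 (0.85) and MAN1A1 (0.82). For TGFBI they were LUM (0.86), COL5A1 (0.84) and DCN (0.82), and for HAPLN1 they were MMP28 (0.86), LOC101866458, named SULT1C4 in the RefSeq table of assembly T2T-MFA8v1.1 (0.84), and COL5A1 (0.83). TNC had the weakest likeness, with LOC101865124 (0.66), LOC102137065 (0.64) and LEF1, a Wnt pathway factor (0.62). Among the 5 themselves r ran from 0.38 for FN1 and TNC to 0.77 for VIM and TGFBI. These values describe the families as much as the genes, since the sums share embryos and families, and no p is given.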

How the data were processed

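Single cells of 21 embryos were sequenced at the 3' end, and the authors deposited whole-number counts of 30792 genes in 1453 cells with a day and a cell type for each cell. The submitters' processing notes list STAR, an aligner, and no other tool. The sources used here give neither the build, the counting tool and the filters nor whether reads were collapsed to molecules, so the share that a count of 0 allows covers counting error only. Of 16890 LOC identifiers, 3273 were named through the RefSeq table of assembly T2T-MFA8v1.1, which left 6.96% of counts unnamed, and 14 date-like names (0.027% of counts) stayed unnamed. Near-identical gene copies may share reads. No cell was removed.

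Counts were summed per embryo and family (at least 5 cells) or label (at least 3 cells), kept by filterByExpr, scaled with TMM and fitted in edgeR 4.0.16 (glmQLFit, robust, then glmQLFTest) under R 4.3.3, with DESeq2 1.42.0 and limma 3.58.1 as alternatives. Fits needed 6 embryos and 3 days, which left AM, Gast and PGC untested. The comparison of TE with EPI kept the 10 embryos with both sums, with the embryo as a block and genes filtered by family, which departs from the planned design. The fits were tested on simulated data. The 5 genes and the lists were chosen with earlier results of these data known. The text names the 5 genes, the 3 genes most like each, and up to 4 called genes a list with the smallest adjusted p, plus those needed to state a count of 5 or fewer. Alternatives were other scalings, tools, filters, cell minimums, label types, days and left-out embryos. A called gene of the TGF-beta list is not reported here by name.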

Additional observations from a re-analysis of the deposited data

Results flagged for a closer look

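FN1 was 0.75 log2 per day steeper in TE than in EPI, by the test of the difference itself. Of 55 groups of 4 or 5 embryos of the same day, within a family or as whole embryos, 3 held an embryo far from the others, and chance alone gives about 1 in 20. FN1 in TE of day 12 was 127 CPM in replicate 1, the embryo of that day with a culture stage label, and 64.5 to 74.8 CPM in the other 4. TNC in TE was 1.96 CPM in the same replicate, from 45 cells, and 0 to 0.458 CPM in the other 4. TGFBI in VE/YE of day 16 was 46.1 CPM in replicate 3, from 8 cells, and 19.9 to 24.3 CPM in the other 3. The part of the stage label or of single cells in these values was not tested.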

How the results depend on the processing

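The TGFBI slope in EPI and the FN1 and TGFBI slopes in TE kept their direction under each alternative that could fit them, and were called in 14 of 14, 16 of 16 and 16 of 16 fits with 1 embryo left out, over ranges of 1.07 to 1.48, 0.94 to 1.11 and 0.72 to 1.10. Of the tested genes among the 5, 1 was called in EPI, 2 with DESeq2, with the mean of per-cell CPM or without the cells rich in EXMC markers, and 0 without day 16 or without day 17, where TGFBI had too few counts. In TE 2 were called, 3 with the mean of per-cell CPM or without the cells rich in EXMC markers, 1 without day 17 and 0 with developmental stage labels only. In VE/YE 0 were called, and 1 with DESeq2, with no filter on low counts, with the mean of per-cell CPM or without day 17. For TE minus EPI 1 was called, and 0 with at least 10 cells per sum or with developmental stage labels only. With 1 embryo left out these counts ran from 1 to 2 in EPI, 2 to 3 in TE, 0 to 1 in VE/YE and 0 to 1 for TE minus EPI.

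The near-zero slope of HAPLN1 in EPI (0.03) turned to -0.033 with at least 3 cells per sum, -0.042 with at least 10, -0.30 with developmental stage labels only, -0.044 with a covariate for the label type, and -0.26 without day 17, and ran from -0.13 to 0.39 with 1 embryo left out. FN1 in VE/YE (-0.07) turned to 0.041 with at least 3 cells and 0.035 with at least 10. HAPLN1 for TE minus EPI (-0.08) turned to 0.078 with at least 3 cells and 0.26 with developmental stage labels only, and ran from -0.15 to 0.035 with 1 embryo left out. The slopes given with no test kept their sign except TNC in EXMC (0.15), which was -0.15 with developmental stage labels only and -0.50 without day 17, and ran from -0.06 to 0.31 with 1 embryo left out. The highest median lay in EXMC for 3 of the 5 genes, for 4 with at least 3 cells per sum, and for 3 to 4 with 1 embryo left out.

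Over all genes, the 442 called in EPI became 1033 with DESeq2, 1232 with no filter, 143 without day 16 and 710 with the mean of per-cell CPM (275 to 503 with 1 embryo left out). The 1813 in TE became 530 with at least 10 cells, 240 with developmental stage labels only and 17 without day 17 (1052 to 1892). The 11 in VE/YE became 153 with DESeq2, 345 with no filter, 57 with at least 3 cells, 23 without day 16, 49 with the mean of per-cell CPM and 123 without day 17 (0 to 123). The 1303 in EXMC became 2732 with no filter, 653 with at least 10 cells and 586 without day 16 (937 to 1371), and the 3488 in whole embryos 2266 without day 16 (2903 to 3728). The 321 for TE minus EPI became 982 with DESeq2, 810 with no filter, 88 with at least 10 cells, 3 with developmental stage labels only and 131 with a covariate for the label type (66 to 386). Fewer embryos or days enter where labels, days or cell minimums are restricted, and for the rest the cause was not tested. The settings without day 17 and without cells rich in EXMC markers were chosen after seeing the data. TE and TE minus EPI have no day 16 sum to leave out, VE/YE has 1 label type only, and AM and Gast gave no fit, so these alternatives were not run. DESeq2 gave no adjusted p for TGFBI in TE and HAPLN1 in EPI. Embryos of different days could not be paired, because the replicate numbers only name the embryos of a day. Families were compared within the same embryo, and TE and EPI sums were tested with the embryo as block. Sums of 3 to 12 cells limit the values of the late labels.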
